A study of Mus musculus with 18 samples.

Results

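The genes described here make, modify, activate, store, release and burn fatty acids. They are 36 named genes of lipid metabolism, chosen by symbol and found through their Ensembl identifiers in a count table of 48023 genes. These genes and the further lists below were chosen with earlier results of these data known. The shares of all genes set beside their counts are thus descriptive. All 36 passed the low-count filter, which kept 15071 genes of the table for testing. Immortalized murine brown preadipocytes, a precursor line of brown fat made with the SV40 T antigen and not differentiated here, were given either vehicle (Veh) or 200 ng/ml of FGF6, and RNA was taken after 4, 8, or 24 h. Each of these 6 groups holds 3 RNA-seq libraries, and total counts ran from 24327816 to 33471980 per library. All groups are the same cell line, and nothing in the labels states that the libraries of a group came from separate cultures, so the p-values measure the spread between these libraries, which may be technical. Levels are given as CPM, counts normalized to the size of the library, with factors computed by the trimmed mean of M values (TMM), as mean ± SD of 3 libraries unless a library is named. Changes are log2 fold changes of FGF6 over Veh ± standard error. Unless an interval of time is named, a rise or fall compares FGF6 with Veh at the same time. A gene was called higher or lower when its adjusted p was under 0.05 in edgeR's quasi-likelihood test over all 15071 genes. An exact permutation test of 3 libraries against 3 cannot go below a p of 0.1, so none is given for single genes.

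Fatty acids are built in the cytosol. ATP citrate lyase (Acly) splits citrate into acetyl-CoA, the acetyl-CoA carboxylases (Acaca, Acacb) make malonyl-CoA, and fatty acid synthase (Fasn) joins these units into palmitate, which elongases and desaturases then lengthen and unsaturate. Acyl-CoA synthetases (Acsl) charge fatty acids with coenzyme A, after which the acyl chain may enter triglyceride through the glycerol phosphate pathway or be carried into mitochondria by the carnitine palmitoyltransferases and oxidized. Brown fat is known for burning fatty acids released from its own lipid droplets to make heat.

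The labelled cell type was checked against its markers. Of 8 preadipocyte and stromal markers, 7 were above 3 counts in every group, and Dlk1 had no count in any library. With FGF6, 5 of the 7 tested were called lower at each time and 1, 2 and 2 higher at 4, 8 and 24 h (medians -0.209, -0.587 and -1.62). Of all genes tested, 34.2%, 38.4% and 37.9% were called lower and 28.6%, 32.4% and 35.9% higher at these times. At 24 h Col1a1, a fibrillar collagen, fell from 3107 ± 151 to 443.3 ± 33.7 CPM, Pdgfrb from 692.6 ± 10 to 133.7 ± 2.33, Pdgfra from 280.5 ± 2.59 to 91.47 ± 3.44 and Ly6a from 242.6 ± 17.5 to 32.34 ± 4.71 CPM, while Vim, an intermediate filament, rose from 3483 ± 139 to 5244 ± 144 CPM and Cd34 from 16.54 ± 0.92 to 42.96 ± 3.37 CPM. The summed level of the 8 was 5391 to 5644 CPM in Veh and 5019 to 5302 CPM in FGF6 at 4 h, 6669 to 7025 against 6008 to 6280 CPM at 8 h, and 7641 to 8059 against 5872 to 6211 CPM at 24 h. Of 8 markers of mature adipocytes, 5 were above 3 counts in the Veh groups, Lep was at 0 in every library, and Ucp1, the uncoupling protein of brown fat, was at 0 in every group except FGF6 at 24 h, where its mean was 0.739 CPM. The summed level of these 8 adipocyte markers was 102.0 to 107.3 CPM in Veh and 89.24 to 97.69 CPM in FGF6 at 4 h. At 8 h it was 96.5 to 99.74 CPM against 68.47 to 72.63 CPM, and at 24 h 155.7 to 178.3 CPM against 64.16 to 70.76 CPM, most of it Fabp4. Of the 5 adipocyte markers tested, Plin1 and Cidec were called lower at 4 h, and these with Adipoq and Fabp4 at 8 and 24 h. The shares of all genes called at these times are those given above. At 4 h Fabp4 stood at -0.08 (adjusted p = 0.133) and Adipoq at 0.07 (adjusted p = 0.888), and Ucp1 was called higher at 24 h. The part of these stromal and adipocyte markers in the results below was not tested. In bulk RNA, fewer cells of a type and less RNA per cell cannot be told apart. The 5 endothelial, 5 macrophage and 5 muscle precursor markers never summed to more than 6.164, 19.14 and 8.963 CPM.

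One library stood apart from its group. Between Veh replicate 3 at 24 h and the other Veh libraries of that time, the chi-square per degree of freedom over gene counts was 35.7 and 39.2, where the other pairs within groups lay between 2.37 and 7.35. Its 20 most counted genes took 7.44% of its counts, against 6.47% and 6.64% in its partners. In the FGF6 libraries of that time they took 7.84%, 7.73% and 7.76%. Veh replicate 3 enters every comparison at 24 h. Without it, 31 of the 36 genes were lower and 3 higher with FGF6 at 24 h (31 and 2 with it), the response was lower for 15 and higher for 9 from 8 to 24 h (15 and 9 with it), and in Veh 29 rose and 1 fell from 8 to 24 h (31 and 1 with it). The gene added at 24 h was Scd2.

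Most of the 36 genes were lower with FGF6 at every time point. At 4 h, 26 were lower and 5 were higher, where 34.2% and 28.6% of all genes tested were called lower and higher. At 8 h, 27 were lower and 4 higher, against 38.4% and 32.4% of all genes, and at 24 h, 31 were lower and 2 higher, against 37.9% and 35.9%. Their median log2 fold changes were -0.38, -0.46 and -0.44 at 4, 8 and 24 h, where the medians of all genes tested were -0.05, -0.05 and -0.02. At least 1.5-fold lower and called were 10 genes at 4 h, 14 at 8 h and 14 at 24 h, against 13.7%, 19.6% and 23.0% of all genes. The libraries of the FGF6 and Veh groups did not overlap for 31, 31 and 34 of the 36 genes, against 66.2%, 73.8% and 74.8% of all genes tested, so that separation between groups was common across the transcriptome. The map of fold changes shows where the 36 genes departed from one another.

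**Figure D1:**
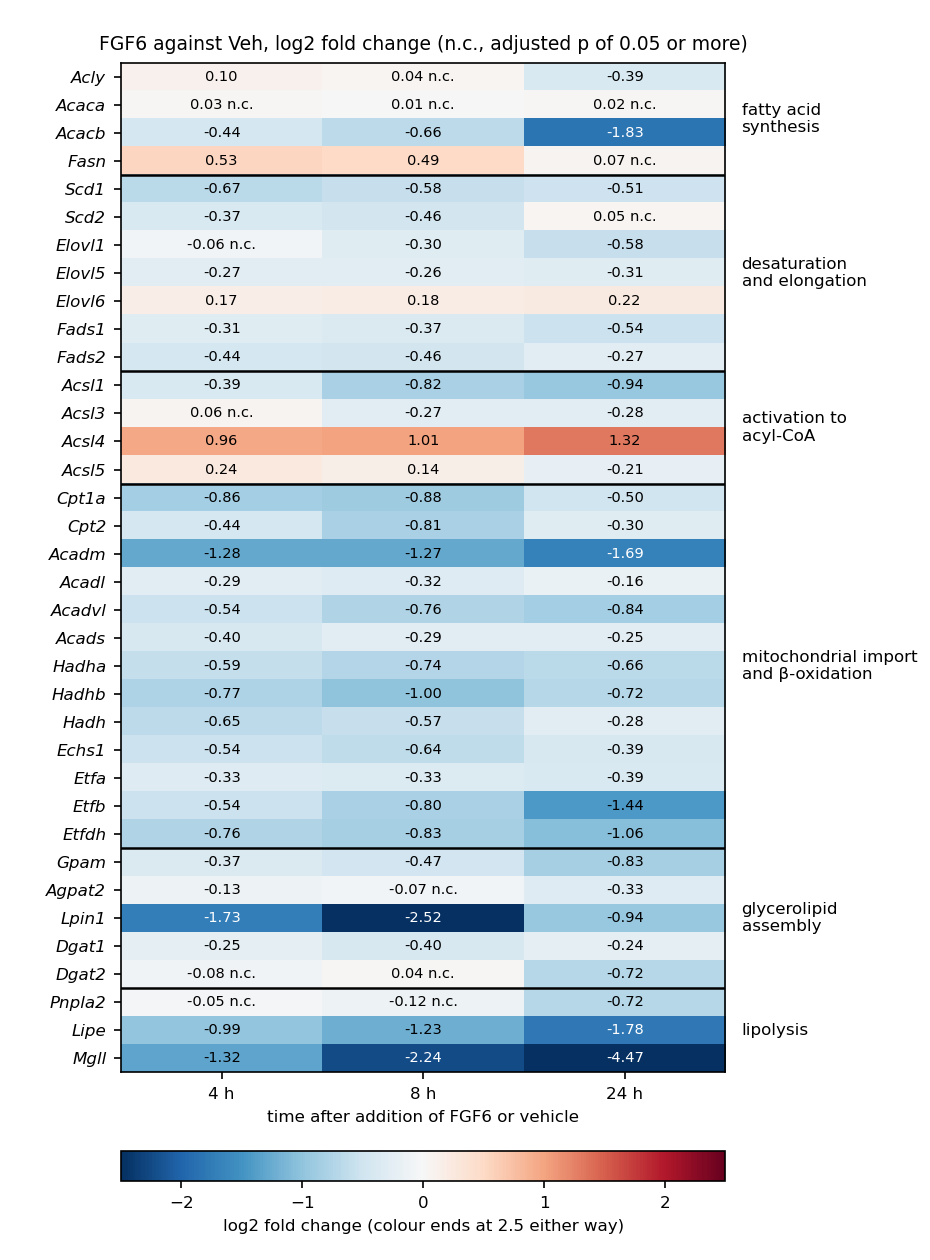
Each row is one of the 36 genes, grouped by role, and each column a time point; colour and number give the log2 fold change of FGF6 over Veh, and n.c. marks an adjusted p of 0.05 or more. Acsl4 was higher at all 3 time points, the 13 genes of mitochondrial import and β-oxidation were lower at all 3, and Mgll at 24 h (-4.47) lies beyond the end of the colour scale.

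The sequence upstream of genes that moved together or apart is shown for Acadm and Etfa, which belong to the oxidation genes that fell together, and for Fasn, which rose at 4 and 8 h. These genes were picked by hand. Acadm and Etfa both hold the NRF1 core named below, which only 3 of the 13 oxidation genes hold. Promoter windows of 300 bases from RefSeq (GRCm38.p6, 250 bases before the transcription start and 50 after) were matched to 31 of the 36 genes, and Scd1, Scd2, Fads1, Dgat1 and Dgat2 had no entry. Only the 250 bases before the start are printed, 5′ to 3′ on the strand of the gene. None of the windows overlaps an exon of the GENCODE annotation. They lie at chr3:153944644-153944893 (minus strand, Acadm), chr9:55512244-55512493 (minus strand, Etfa) and chr11:120824548-120824797 (minus strand, Fasn). Capitals mark matches on either strand to any of 5 short motifs, spelled out beneath them.
Acadm: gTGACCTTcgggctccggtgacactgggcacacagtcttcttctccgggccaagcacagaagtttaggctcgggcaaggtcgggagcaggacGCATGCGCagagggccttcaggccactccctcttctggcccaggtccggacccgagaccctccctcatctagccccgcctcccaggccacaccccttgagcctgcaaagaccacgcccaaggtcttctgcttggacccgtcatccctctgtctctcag
Etfa: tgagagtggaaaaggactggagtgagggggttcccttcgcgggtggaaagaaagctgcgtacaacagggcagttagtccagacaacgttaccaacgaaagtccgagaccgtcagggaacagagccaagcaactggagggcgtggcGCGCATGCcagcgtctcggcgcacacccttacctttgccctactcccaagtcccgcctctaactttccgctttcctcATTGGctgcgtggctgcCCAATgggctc
Fasn: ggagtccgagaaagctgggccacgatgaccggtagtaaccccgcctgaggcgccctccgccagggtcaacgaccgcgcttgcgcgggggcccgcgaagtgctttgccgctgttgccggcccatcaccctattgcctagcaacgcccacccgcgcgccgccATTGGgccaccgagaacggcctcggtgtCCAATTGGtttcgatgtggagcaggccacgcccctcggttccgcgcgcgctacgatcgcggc

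The motifs searched were the NF-Y box CCAAT, the sterol regulatory element TCACNCCAC, the E-box CACGTG, the half-site of the estrogen-related receptors AAGGTCA, and the core of the NRF1 site GCATGCGC. The NRF1 core lay in the windows of 3 of the 13 oxidation genes, Acadm, Etfa and Etfdh, and in none of the other 18 genes that had a window. This is 9.68% of the 31 genes, and over all 27025 genes with a window 3.05% held it. Fasn held 3 matches to the NF-Y box, of which the last pair overlap as CCAATTGG, and 45.2% of the 31 genes held at least 1 such match, against 41.1% of all genes. The estrogen-related half-site was in 6.45% of the 31 genes (Acacb and Acadm) and in 5.38% of all genes. An E-box was in 9.68% (Elovl5, Lipe and Mgll) against 8.09%, and the sterol regulatory element in 3.23% (Acsl1) against 1.44%. Of the 13 oxidation genes, 5 held an NF-Y box and 1 the estrogen-related half-site, and 0 held an E-box or a sterol regulatory element. These matches are letters in a short window and do not show that a factor binds there, and the absence of a match says only that the letters are not in the window.

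Of the 4 genes of fatty acid synthesis, Fasn and Acly were higher at 4 h, Fasn alone was higher at 8 h, and none was higher at 24 h. Their median log2 fold changes were 0.06, 0.02 and -0.18. Of all genes tested, 28.6%, 32.4% and 35.9% were higher at 4, 8 and 24 h. Fasn (ENSMUSG00000025153, chr11:120805846-120824547) had 585.3, 512.6 and 481.4 CPM in the Veh libraries at 4 h and 777.2, 749.9 and 750.8 CPM with FGF6. Every FGF6 library at 4 h was above every Veh library, with a log2 fold change of 0.53 ± 0.05 (adjusted p = 2.3e-09). The change was 0.49 ± 0.05 at 8 h (adjusted p = 6.37e-09). From 8 to 24 h the mean of Fasn rose in both groups, to 871.9 ± 21.1 CPM in Veh and 914.3 ± 13.5 CPM with FGF6. The difference of 0.07 ± 0.05 at 24 h did not pass the test (adjusted p = 0.24), although the libraries of the groups did not overlap.

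Acacb, the carboxylase held at the mitochondrial outer membrane whose malonyl-CoA restrains fatty acid import, went the other way. Acacb (ENSMUSG00000042010, chr5:114146535-114250761) had 4.04, 4.958 and 4.45 CPM in Veh at 8 h against 2.767, 3.025 and 2.712 CPM with FGF6. At 24 h the Veh libraries had 5.815, 7.027 and 6.517 CPM and the FGF6 libraries 2.188, 1.643 and 1.615 CPM. The groups did not overlap at either time. Its log2 fold changes were -0.44 ± 0.14 at 4 h (adjusted p = 0.00957), -0.66 ± 0.15 at 8 h (adjusted p = 0.000294) and -1.83 ± 0.15 at 24 h (adjusted p = 5.76e-11). At 4 h the call rested on 1 library: without FGF6 replicate 2 the change was -0.289 (adjusted p = 0.116). Acaca, the cytosolic carboxylase that feeds synthesis, had 49.99 ± 2.62 against 50.92 ± 1.1 CPM at 4 h and 55.7 ± 2.46 against 56.65 ± 1.1 CPM at 24 h, and passed the test at no time (log2 fold changes of 0.03, 0.01 and 0.02, adjusted p = 0.627, 0.855 and 0.631). On the scale of CPM per kb of exons, Acacb supplied 17.0% ± 0.72 of the summed carboxylase level in Veh at 24 h and 5.38% ± 1 with FGF6. The exons of Acaca span 17074 bases in all and its longest coding transcript 9513, against 9632 and 8788 for Acacb. The share of Acacb may thus be overstated. Acaca shares 64.3% of its longest transcript at 95% identity or more with the pseudogene Gm5182, so its counts are uncertain if reads with several matches were dropped or split. Acly was 0.10 ± 0.03 higher at 4 h (adjusted p = 0.00859) and stood at 0.04 ± 0.03 at 8 h (adjusted p = 0.275). At 24 h it was lower with FGF6 by 0.39 on the log2 scale (adjusted p = 6.43e-11), at 661.3 ± 15.9 CPM against 864.7 ± 36.1 CPM in Veh. Both levels were above those at 8 h, which were 503.5 ± 2.11 CPM with FGF6 and 489.6 ± 18.7 CPM in Veh. Scaled by library sizes alone, the change of Acly at 4 h was 0.000297 and was not called. At 8 h Acly was called higher when any of 9 libraries was left out, with values of 0.0821 to 0.0854. Leaving out a library can move all genes together. Without FGF6 replicate 1 at 4 h, which is not in the 8 h comparison, the median of all genes at 8 h was -0.00853, against -0.05. The part of such a move in the calls of Acly was not tested.

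**Figure D2:**
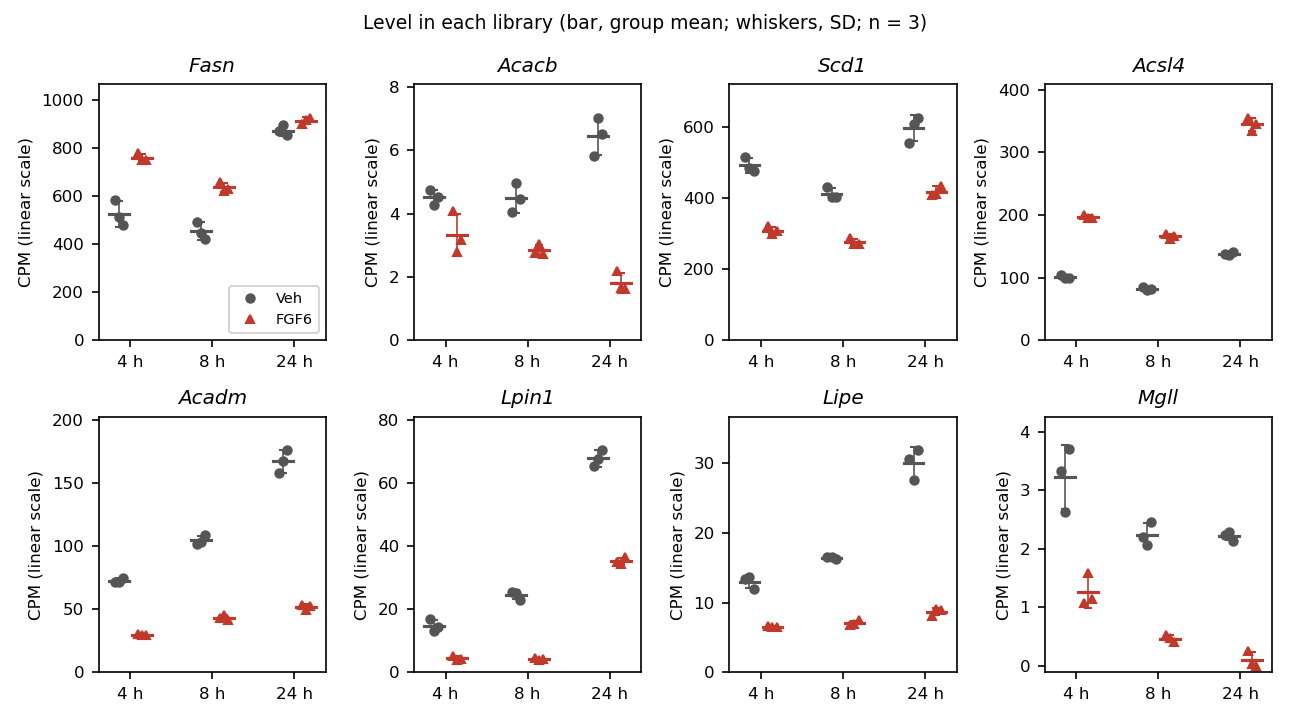
Level of 8 genes in each library, in CPM on linear axes, with Veh as grey circles and FGF6 as red triangles at 4, 8 and 24 h; bars are group means and whiskers SD of 3 libraries. The FGF6 libraries lie below the Veh libraries at every time for Acacb, Scd1, Acadm, Lpin1, Lipe and Mgll, above them at every time for Acsl4, and for Fasn above them by far less at 24 h (914.3 against 871.9 CPM) than at 4 h (759.3 against 526.4 CPM).

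Among the 7 desaturases and elongases, 5 were lower at 4 h, 6 at 8 h and 5 at 24 h, and Elovl6 was the 1 gene higher at each time. The medians were -0.305, -0.367 and -0.311. Among all genes, 34.2%, 38.4% and 37.9% were lower and 28.6%, 32.4% and 35.9% higher at these times. Scd1 and Scd2 are stearoyl-CoA desaturases, which place the first double bond in saturated acyl chains. Scd1 (ENSMUSG00000037071, chr19:44394455-44407879) had 514.7, 484.1 and 474.2 CPM in Veh at 4 h and 319.3, 297.1 and 307.4 CPM with FGF6. At 8 h it had 430.0, 400.7 and 402.2 CPM in Veh and 285.7, 270.5 and 271.3 CPM with FGF6. The groups were apart at both times, and at 24 h too, with log2 fold changes of -0.67 ± 0.04, -0.58 ± 0.04 and -0.51 ± 0.04 (adjusted p = 6.97e-13, 9.88e-12 and 6.59e-11). Scd2 was the gene with the highest level of the 36 per kb of exons in Veh at 4 h (222.1 ± 13 CPM per kb). It fell by 0.37 on the log2 scale at 4 h (adjusted p = 1.39e-07) and by 0.46 at 8 h (adjusted p = 2.49e-09), but at 24 h its groups overlapped at 2904 ± 168 and 2996 ± 98.7 CPM (log2 fold change 0.05, adjusted p = 0.386). Without Veh replicate 3 at 24 h, Scd2 was called higher by 0.122 (adjusted p = 0.0338). That fit moved the median of all genes at 24 h to 0.0205, from -0.02. The share of Scd2 in the summed Scd1 and Scd2 level per kb was 68.9% ± 0.33 in Veh and 73.2% ± 0.13 with FGF6 at 4 h, and 81.4% ± 0.069 against 86.5% ± 0.17 at 24 h. Scd1 and Scd2 match each other over 11.4% of the Scd2 transcript.

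The front-end desaturases Fads1 and Fads2, which act in the synthesis of arachidonic acid and other polyunsaturated fatty acids, were both lower at all 3 time points. Fads2 (ENSMUSG00000024665, chr19:10062765-10101746) had 160.5, 157.6 and 153.3 CPM in Veh at 4 h and 120.3, 116.8 and 109.4 CPM with FGF6. At 8 h the values were 153.0, 142.3 and 141.8 CPM against 110.1, 107.0 and 100.4 CPM. Neither time showed overlap, and the log2 fold changes were -0.44 ± 0.04, -0.46 ± 0.04 and -0.27 ± 0.04 at 4, 8 and 24 h (adjusted p = 1.12e-09, 4.24e-10 and 1.55e-06). Fads1 (ENSMUSG00000010663, chr19:10182888-10196877) had 479.8, 512.4 and 513.1 CPM in Veh at 24 h and 331.3, 339.6 and 362.8 CPM with FGF6. All FGF6 libraries lay below all Veh libraries, and its log2 fold changes were -0.31 ± 0.04, -0.37 ± 0.04 and -0.54 ± 0.04 (adjusted p = 1.38e-07, 4.35e-09 and 1.66e-12).

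Of the elongases, Elovl1, which extends saturated and monounsaturated very long chains, stood at -0.06 ± 0.03 at 4 h (adjusted p = 0.0978) and was lower by 0.30 and 0.58 on the log2 scale at 8 and 24 h (adjusted p = 1.59e-08 and 3.76e-14). Elovl1 (ENSMUSG00000006390, chr4:118428093-118432953) had 178.6, 183.3 and 182.9 CPM in Veh at 24 h against 117.9, 122.7 and 124.4 CPM with FGF6, with no overlap. Elovl5, which extends polyunsaturated chains, was lower by a like amount at each time (-0.27, -0.26 and -0.31, adjusted p = 2.7e-08, 4.92e-08 and 1.07e-09). Elovl6, which carries palmitate to stearate, was higher by 0.17 ± 0.06, 0.18 ± 0.06 and 0.22 ± 0.05 (adjusted p = 0.0093, 0.00555 and 0.000715), and at 4 h its groups overlapped. The call for Elovl6 was lost at 4 h without Veh replicate 3 (0.143, adjusted p = 0.0538) and at 8 h without Veh replicate 2 (0.12, adjusted p = 0.0679). Scaled by library sizes alone, Elovl6 was called at neither 4 nor 8 h.

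The 4 acyl-CoA synthetases parted, with 2, 2 and 1 higher and 1, 2 and 3 lower at 4, 8 and 24 h (medians 0.15, -0.07 and -0.245). The shares of all genes were 28.6%, 32.4% and 35.9% higher and 34.2%, 38.4% and 37.9% lower. Acsl4, which prefers arachidonate and other polyunsaturated fatty acids, had the largest increase of the 36 genes at each time. Acsl4 (ENSMUSG00000031278, chrX:142317993-142390535) had 104.0, 99.55 and 99.07 CPM in Veh at 4 h and 199.4, 195.6 and 195.2 CPM with FGF6. At 8 h it had 84.4, 79.97 and 82.43 CPM against 169.8, 162.0 and 165.7 CPM, and at 24 h 137.0, 136.4 and 140.1 CPM against 354.9, 333.6 and 345.1 CPM. The groups stood well apart at all times, with log2 fold changes of 0.96 ± 0.03, 1.01 ± 0.03 and 1.32 ± 0.03 (adjusted p = 2.15e-18, 5.55e-19 and 8.02e-22). Acsl1, the main synthetase of fat and heart, fell by 0.39, 0.82 and 0.94 on the log2 scale (adjusted p = 6.93e-09, 6.33e-15 and 3.77e-16), reaching 38.45 ± 1.47 CPM with FGF6 at 24 h against 73.79 ± 0.94 CPM in Veh. Acsl3, which sits on the endoplasmic reticulum and nascent lipid droplets, stood at 0.06 at 4 h (adjusted p = 0.334) and was lower by 0.27 and 0.28 afterwards (adjusted p = 7.34e-05 and 1.36e-05). Acsl5 was higher at 4 and 8 h (0.24 and 0.14, adjusted p = 4.03e-06 and 0.00152) and lower at 24 h (-0.21, adjusted p = 2.1e-05), and the change of Acsl5 at 8 h was not called when libraries were scaled by size alone (0.0788). Summed over the 4 genes per kb of exons, the share of Acsl4 was 31.7% ± 1.2 in Veh and 46.4% ± 1.0 with FGF6 at 4 h, and 29.5% ± 0.91 against 56.6% ± 0.82 at 24 h, while that of Acsl1 was 8.15% ± 0.3 against 3.26% ± 0.11 at 24 h. The exons of Acsl1 span 10483 bases in all, and its longest coding transcript 3897. For Acsl4 these lengths are 5405 and 5280, so the share of Acsl1 may be understated. Of the exons of Acsl1, 1039 bases face Gm45244 on the other strand, and the strand setting of the counts is not stated.

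**Figure D3:**
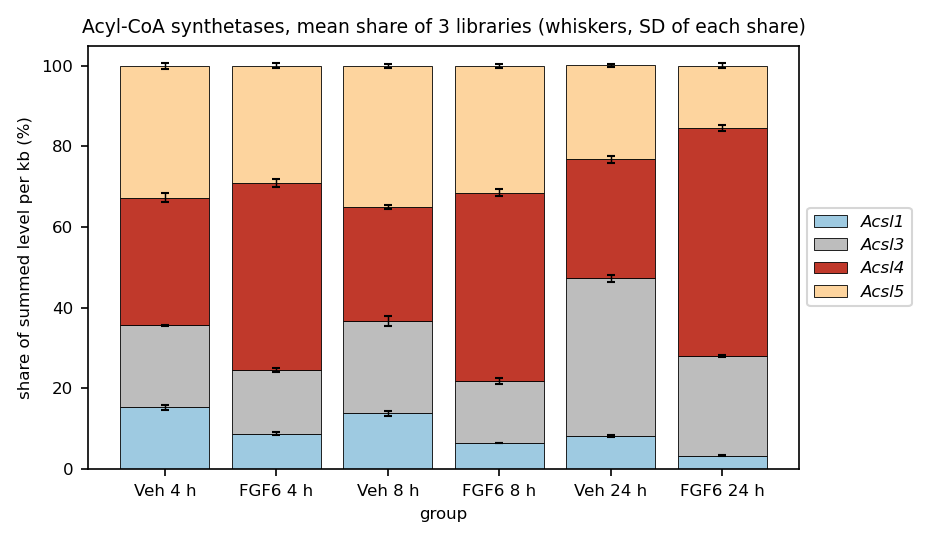
Mean share of Acsl1, Acsl3, Acsl4 and Acsl5 in their summed level per kb of exons in each of the 6 groups, with the SD of each share over 3 libraries at the top of its segment. The Acsl4 segment is larger with FGF6 at each time, from 31.7% to 46.4% at 4 h, 28.3% to 46.7% at 8 h and 29.5% to 56.6% at 24 h.

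All 13 genes of mitochondrial import and β-oxidation were lower with FGF6 at each time point, in a background where 34.2%, 38.4% and 37.9% of all genes were lower. Their medians were -0.54, -0.76 and -0.50 at 4, 8 and 24 h. The same 13 of 13 calls stood at each time in all 27 fits, counting the reported one, other tools, scalings and filters, and each library left out. The group spans the path from import (Cpt1a, Cpt2) through the acyl-CoA dehydrogenases (Acadvl, Acadl, Acadm, Acads), the hydratase, hydroxyacyl dehydrogenase and thiolase steps (Hadha, Hadhb, Hadh, Echs1) to electron transfer to ubiquinone (Etfa, Etfb, Etfdh).

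Cpt1a, the gated step of mitochondrial entry, fell by more at 8 h than at 24 h (difference 0.39 ± 0.06 on the log2 scale, adjusted p = 4.91e-06). Cpt1a (ENSMUSG00000024900, chr19:3322334-3385733) had 165.6, 168.3 and 161.8 CPM in Veh at 4 h and 93.1, 92.02 and 88.04 CPM with FGF6. The groups did not overlap, and the log2 fold changes were -0.86 ± 0.04 at 4 h, -0.88 ± 0.04 at 8 h and -0.50 ± 0.04 at 24 h (adjusted p = 1.75e-15, 6.27e-16 and 3e-11). Cpt2, the inner membrane partner, had -0.44, -0.81 and -0.30 (adjusted p = 1.47e-07, 1.41e-12 and 1.58e-05), and without FGF6 replicate 1 its change at 24 h was -0.197.

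Acadm, the medium-chain acyl-CoA dehydrogenase, had the largest decrease of the 13 at each time. Acadm (ENSMUSG00000062908, chr3:153922357-153944632), whose upstream sequence is printed above, had 71.34, 71.98 and 75.07 CPM in Veh at 4 h against 30.8, 29.35 and 29.66 CPM with FGF6. At 8 h it had 101.9, 103.7 and 108.9 CPM against 42.78, 45.85 and 41.62 CPM, and at 24 h 158.1, 167.8 and 176.2 CPM against 53.18, 49.83 and 52.96 CPM. Every FGF6 library was below every Veh library, at log2 fold changes of -1.28 ± 0.05, -1.27 ± 0.04 and -1.69 ± 0.04 (adjusted p = 1.24e-17, 2.74e-18 and 3.14e-21). The dehydrogenases for longer and shorter chains changed less. Acadvl, for very long chains, had -0.54, -0.76 and -0.84 (adjusted p = 3.19e-09, 3.41e-12 and 1.34e-13), Acadl, for long chains, -0.29, -0.32 and -0.16 (adjusted p = 3.14e-07, 4.61e-08 and 0.000261), and Acads, for short chains, -0.40, -0.29 and -0.25 (adjusted p = 1.93e-07, 1.4e-05 and 4.72e-05). At 24 h the change of Acads was -0.152 without FGF6 replicate 1, and that of Acadl -0.104 without Veh replicate 2, -0.101 without Veh replicate 3 and -0.0999 without FGF6 replicate 1, all still called. Of the exons of Acadvl, 1151 bases overlap Dvl2 on the other strand, whose level was 113.0 CPM in Veh and 122.0 CPM with FGF6 at 4 h and 124.0 against 90.6 CPM at 24 h, so the counts of Acadvl may hold some of Dvl2.

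Hadha and Hadhb encode the subunits of the trifunctional protein of the inner membrane, which runs the last steps of the cycle on long chains. Hadhb (ENSMUSG00000059447, chr5:30155248-30184593) had 12.18, 11.86 and 10.99 CPM in Veh at 8 h and 6.315, 5.445 and 5.752 CPM with FGF6, without overlap. Its log2 fold changes were -0.77 ± 0.10, -0.999 ± 0.095 and -0.72 ± 0.09 (adjusted p = 2.9e-07, 7.76e-10 and 1.08e-07), and those of Hadha, its neighbour on the opposite strand, were -0.59, -0.74 and -0.66 (adjusted p = 2.49e-14, 1.15e-16 and 6.4e-16). Per kb of exons the level of Hadhb in Veh at 4 h was 1.33 ± 0.08 CPM per kb and that of Hadha 18.8 ± 0.27 CPM per kb. Hadhb shares 69.7% of its longest transcript with the copies Gm13910 and Gm9108, so its level is uncertain. Hadh, which handles shorter chains, had -0.65, -0.57 and -0.28 (adjusted p = 2.09e-14, 1.1e-13 and 6.01e-08), and Echs1, the short-chain hydratase, -0.54, -0.64 and -0.39 (adjusted p = 2.04e-12, 3.79e-14 and 3.75e-10).

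The electron transfer flavoprotein (Etfa and Etfb) and its dehydrogenase Etfdh hand electrons from the acyl-CoA dehydrogenases to ubiquinone. Etfb (ENSMUSG00000004610, chr7:43444083-43457800) had 18.25, 21.56 and 22.7 CPM in Veh at 24 h and 7.806, 7.394 and 7.781 CPM with FGF6, with no overlap. Its log2 fold changes were -0.54 ± 0.09, -0.80 ± 0.09 and -1.44 ± 0.09 (adjusted p = 5.44e-06, 6.36e-09 and 8.42e-14). Etfa, its partner subunit, had smaller values of -0.33, -0.33 and -0.39 (adjusted p = 4e-08, 1.87e-08 and 8.26e-10), and Etfdh had -0.76, -0.83 and -1.06 (adjusted p = 1.65e-13, 7.95e-15 and 2.82e-17). Of the longest transcript of Etfb, 70.1% is also part of the overlapping gene Gm45233, which makes the counts of Etfb uncertain.

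**Figure D4:**
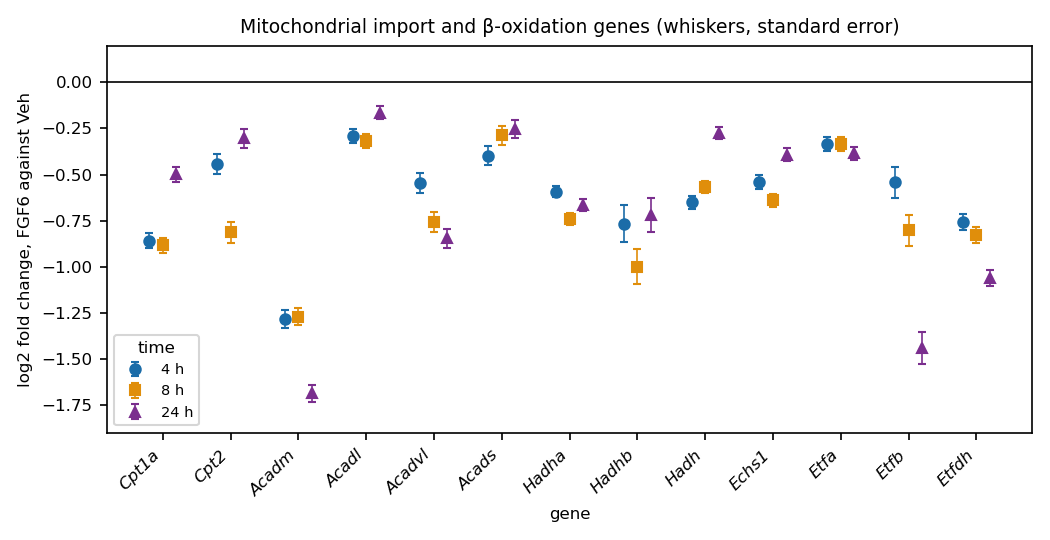
Log2 fold change of FGF6 over Veh for the 13 genes of mitochondrial import and β-oxidation at 4 h (circles), 8 h (squares) and 24 h (triangles), with standard errors as whiskers. All 39 points lie below 0, with Acadm lowest at each time. From 8 to 24 h the change was called closer to 0 for 5 genes (Cpt1a, Cpt2, Hadh, Echs1 and Acadl) and farther from 0 for 3 (Acadm, Etfb and Etfdh).

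Of the 5 genes of glycerolipid assembly, none was higher at any time, and 4, 3 and 5 were lower at 4, 8 and 24 h (medians -0.25, -0.40 and -0.72). Among all genes, 28.6%, 32.4% and 35.9% were higher and 34.2%, 38.4% and 37.9% lower. The counts of 0 higher were the same at an unadjusted p under 0.05 and with limma and DESeq2, here and for fatty acid synthesis at 24 h. Lpin1, the phosphatidate phosphatase that makes diacylglycerol and also acts as a nuclear coactivator, fell furthest. Lpin1 (ENSMUSG00000020593, chr12:16535669-16610966) had 16.93, 13.01 and 14.29 CPM in Veh at 4 h against 5.288, 3.92 and 4.103 CPM with FGF6. At 8 h it had 25.6, 25.14 and 23.04 CPM against 4.655, 3.832 and 4.355 CPM, and at 24 h 65.19, 67.61 and 70.38 CPM against 34.83, 34.44 and 36.48 CPM. The groups were apart at all times, and the FGF6 level at 24 h was above the Veh level at 4 and 8 h. The log2 fold changes were -1.73 ± 0.10, -2.52 ± 0.10 and -0.94 ± 0.07 (adjusted p = 2.06e-13, 1.59e-17 and 2.63e-12). Gpam, the mitochondrial acyltransferase of the first step, had -0.37, -0.47 and -0.83 (adjusted p = 5.7e-06, 1.1e-07 and 2.6e-12). Agpat2, of the second step, had -0.13, -0.07 and -0.33 (adjusted p = 0.0433, 0.306 and 9.21e-06), and its call at 4 h was lost when any of 11 libraries was left out, at values of -0.134 to -0.0916. Some of these fits may hold a move of all genes. Without Veh replicate 1 at 24 h, which is not in the 4 h comparison, the median of all genes at 4 h was -0.025, against -0.05. Dgat1 and Dgat2 add the last acyl chain of triglyceride: Dgat1 had -0.25, -0.40 and -0.24 (adjusted p = 9.87e-05, 1.03e-07 and 0.000178), and Dgat2 -0.08, 0.04 and -0.72 (adjusted p = 0.287, 0.632 and 5.78e-10), from 41.0 ± 0.96 to 24.98 ± 0.97 CPM at 24 h.

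The 3 lipases of triglyceride breakdown act in sequence, Pnpla2 (ATGL) on triglyceride, Lipe (hormone-sensitive lipase) on diglyceride and Mgll on monoglyceride. Mgll and Lipe were lower at all 3 times, and Pnpla2 was lower at 24 h, for medians of -0.99, -1.23 and -1.78. The shares of all genes that were lower at 4, 8 and 24 h were 34.2%, 38.4% and 37.9%. Mgll (ENSMUSG00000033174, chr6:88724412-88828360) had 3.34, 2.627 and 3.705 CPM in Veh at 4 h and 1.072, 1.594 and 1.138 CPM with FGF6, and at 8 h 2.21, 2.066 and 2.465 CPM against 0.5209, 0.4706 and 0.4109 CPM. At 24 h the Veh libraries held 64, 76 and 51 counts of it (2.242, 2.292 and 2.144 CPM) and the FGF6 libraries 7, 1 and 0 counts. The groups did not overlap at any time. Its log2 fold changes were -1.32 ± 0.23, -2.24 ± 0.29 and -4.47 ± 0.40 (adjusted p = 2.08e-05, 1.78e-07 and 2.58e-10), and at 24 h the summed counts were 23.1-fold lower, with a 95% exact interval of 11.5 to 54.2 that covers counting error only. Lipe had -0.99 ± 0.08, -1.23 ± 0.08 and -1.78 ± 0.07 (adjusted p = 6.33e-11, 2.68e-13 and 1.76e-17), and its level at 24 h was 29.98 ± 2.23 CPM in Veh and 8.70 ± 0.53 CPM with FGF6. Of the exons of Lipe, 918 bases face 4732471J01Rik on the other strand, whose level was at most 1.73 CPM in any group. Pnpla2 stood at -0.05 and -0.12 at 4 and 8 h (adjusted p = 0.557 and 0.083). At 24 h it was lower with FGF6, at 37.38 ± 1.54 CPM against 61.44 ± 1.47 CPM in Veh (log2 fold change -0.72, adjusted p = 2.66e-11). Both levels were above those at 8 h, which were 26.51 ± 2.22 CPM with FGF6 and 28.92 ± 0.81 CPM in Veh. Without FGF6 replicate 1 at 8 h, Pnpla2 was called lower by 0.197 on the log2 scale (adjusted p = 0.0102).

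Whether the response changed with time was tested as an interaction. From 4 to 8 h, 7 of the 36 genes had a lower log2 fold change and none had a higher one (edgeR, adjusted p under 0.05), where 15.1% of all genes tested were lower and 15.5% higher. At an unadjusted p under 0.05, and with limma and DESeq2, 0 were higher, and at an adjusted p under 0.25, 2 were. From 8 to 24 h, 9 were higher and 15 lower, against 22.6% and 22.5% of all genes. Lpin1 was the 1 gene whose response moved by at least 1.5-fold both times, falling by 0.79 on the log2 scale from 4 to 8 h (adjusted p = 0.000321) and rising by 1.58 from 8 to 24 h (adjusted p = 9.47e-11). Of the genes whose log2 fold change was lower at 24 h than at 8 h, Mgll moved by -2.22 ± 0.60, Acacb by -1.17 ± 0.22, Dgat2 by -0.75 ± 0.10, Etfb by -0.64 ± 0.12 and Pnpla2 by -0.59 ± 0.09 (adjusted p = 0.00351, 7.65e-05, 4.85e-07, 0.000131 and 2.89e-06). Dgat2 and Pnpla2 were not called at 8 h.

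The levels of these genes also moved with time in vehicle-treated cells. These comparisons share the Veh libraries with the comparisons above. From 4 to 8 h, 13 of the 36 genes rose and 12 fell, where 21.2% of all genes rose and 21.7% fell, and 11 of the 13 that rose were oxidation genes. From 8 to 24 h, 31 rose and Dgat1 alone fell (-0.20 ± 0.05, adjusted p = 0.00137), where 25.5% and 23.7% of all genes rose and fell, and the median over the 36 was 0.36 against 0.00 over all genes. In that interval Lpin1 and Acsl3 rose by 1.46 each (adjusted p = 1.08e-14 and 3.81e-17), Scd2 by 1.26, Pnpla2 by 1.09, Elovl6 by 1.08 and Fasn by 0.94 on the log2 scale (adjusted p = 1.01e-16, 1.18e-13, 5.05e-14 and 2.05e-13). Acadm rose by 0.53 from 4 to 8 h and by 0.67 from 8 to 24 h in Veh (adjusted p = 3.45e-10 and 1.9e-12).

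Further genes of the pathway were read in lists set by function, against the 34.2%, 38.4% and 37.9% of all genes that were lower and the 28.6%, 32.4% and 35.9% that were higher at 4, 8 and 24 h. Among 14 genes of the carnitine shuttle and further mitochondrial oxidation, 11, 11 and 12 were lower at 4, 8 and 24 h and 0, 0 and 1 higher (medians -0.57, -0.68 and -0.56). At 24 h the largest decrease was that of Acad10, an acyl-CoA dehydrogenase family member (-1.01 ± 0.12, adjusted p = 1.9e-08), and the 1 increase that of Hsd17b10 (0.15 ± 0.04, adjusted p = 0.00185). Of 12 genes of peroxisomal oxidation, which shortens very long and branched chains, 11 were lower at each time and 0, 1 and 0 higher, with medians of -0.59, -0.80 and -0.83. Ehhadh, the peroxisomal bifunctional enzyme, had the largest decrease at 24 h (-1.99 ± 0.30, adjusted p = 2.11e-06) at 1.46 ± 0.12 CPM in Veh and 0.36 ± 0.08 CPM with FGF6. The 1 increase, at 8 h, was that of Pecr, the peroxisomal trans-2-enoyl-CoA reductase (0.27 ± 0.09, adjusted p = 0.00681). The 0 counts of these 2 lists were 0 also at an unadjusted p under 0.05 and with limma and DESeq2.

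Of 12 genes of fatty acid uptake and binding, 10 were tested, of which 3, 7 and 7 were lower and 3, 2 and 2 higher (medians -0.08, -0.345 and -0.61). Lpl, the lipoprotein lipase that frees fatty acids outside the cell, fell from 1421 ± 71.7 to 82.65 ± 3.94 CPM at 24 h (log2 fold change -4.10 ± 0.05, adjusted p = 5.35e-28), and Fabp5, a binding protein, rose by 0.50 ± 0.06 (adjusted p = 1.81e-08). Of 18 lipid droplet proteins and lipase cofactors, 14 were tested, of which 10, 10 and 11 were lower and 3, 3 and 2 higher (medians -0.37, -0.67 and -0.76). Plin1, the perilipin of adipocytes, had 74 counts in Veh at 24 h and none with FGF6, at least 7.93-fold lower against a floor of 3 counts per library, and Hilpda, an inhibitor of Pnpla2, rose by 2.04 ± 0.07 (adjusted p = 3.14e-19) from 16.3 ± 1.0 to 66.86 ± 1.99 CPM.

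Of 8 further acyl-CoA synthetases and thioesterases, 4, 4 and 5 were higher and 2 lower at each time (medians -0.05, 0.22 and 0.70). Acsbg1, a bubblegum-type synthetase, rose from 3.00 ± 0.71 to 99.57 ± 1.47 CPM at 24 h (5.05 ± 0.09, adjusted p = 1.67e-24), and Acot2, a mitochondrial thioesterase, fell by 1.38 on the log2 scale (adjusted p = 1.13e-10). Of 14 further elongases, desaturases and partners, 12 were tested, of which 5, 6 and 5 were higher and 2, 3 and 5 lower (medians 0.09, 0.35 and 0.05). Elovl7 rose by 1.40 ± 0.15 at 24 h (adjusted p = 4.49e-09), and Hacd4, a dehydratase of the elongation cycle, fell by 4.02 (adjusted p = 2.81e-16). Of 12 further acyltransferases and phosphatases, 11 were tested, of which 8, 6 and 6 were higher and 3, 3 and 4 lower (medians 0.215, 0.16 and 0.23), with Gpat3 at 0.45 ± 0.09 (adjusted p = 7.27e-05) and Plpp1 at -1.45 ± 0.04 (adjusted p = 1.03e-21) the extremes at 24 h.

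Of 10 genes that supply NADPH and acetyl-CoA, 1, 3 and 4 were higher and 6, 5 and 6 lower (medians -0.235, -0.14 and -0.09), where 28.6%, 32.4% and 35.9% of all genes were higher and 34.2%, 38.4% and 37.9% lower. Acss2, which makes acetyl-CoA from acetate, fell from 123.1 ± 10 to 16.43 ± 1.55 CPM at 24 h (-2.91 ± 0.07, adjusted p = 4.29e-22), and Mid1ip1, an activator of acetyl-CoA carboxylase, rose by 0.49 ± 0.05 (adjusted p = 1.12e-08). Of 21 regulators, 19 were tested, of which 4, 7 and 5 were higher and 7, 8 and 8 lower (medians -0.01, -0.04 and -0.01), which is near those shares of all genes. At 24 h Prkaa2, a catalytic subunit of AMP-activated kinase, rose most (1.48 ± 0.13, adjusted p = 1.17e-10), and Cebpa, an adipogenic factor, fell most (-2.15 ± 0.07, adjusted p = 1.94e-19). Pparg, Srebf1 and Esrra were singled out after their values were seen. Pparg, the master factor of adipogenesis, had -0.98 ± 0.05, -1.35 ± 0.05 and -2.04 ± 0.05 (adjusted p = 4.49e-15, 1.08e-17 and 1.01e-21). Srebf1, which drives lipogenic genes, had 0.06, 0.08 and 0.04 (adjusted p = 0.212, 0.0793 and 0.357). Esrra, which encodes the estrogen-related receptor α, had 0.71, 0.86 and 0.05 (adjusted p = 1.72e-11, 3.87e-13 and 0.404).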

How the data were processed

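The authors aligned reads to GRCm38.p4 with STAR, assigned them to genes with Subread featureCounts, and deposited raw counts per gene without normalization. Versions, annotation release, strand setting and the treatment of reads with several matches are not given in the sources used here. The 18 libraries were grouped by their labels into 6 groups of 3, and the dose came from the description of the study's supplementary data. The 36 genes and all gene lists were chosen with earlier results of these data known. Symbols, positions and exon lengths came from GENCODE M21, which held 98.5% of the identifiers.

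Genes were kept by edgeR's filterByExpr (15071 of 48023). In R 4.3.3, edgeR 4.0.16 computed TMM factors (0.951 to 1.05) and fitted its quasi-likelihood model to 6 group means over all 18 libraries without covariates, and adjusted p-values follow Benjamini and Hochberg over all genes tested. The threshold was 0.05, where the study used limma with voom at 0.25. Standard errors are those implied by the F statistic. CPM divides each count by the TMM-adjusted library size of the kept genes, and 3 counts correspond to 0.0905 to 0.126 CPM, depending on the library. Per kb values divide by the union of exons, which for some genes is much longer than the longest coding transcript. Every library was nearest to its own group (18 of 18), and no pair of libraries of a group agreed within sampling noise, with Veh replicate 3 at 24 h farthest from its partners. Values in each library are given for the called gene with the largest change per role and time (the 2 largest in roles of 6 or more genes). Of the further lists, the called genes with the largest increase and decrease at 24 h are named, some with their log2 fold change only. With the interaction test, time differences are named where they passed and reached 0.58 on the log2 scale. Smaller ones are named for oxidation genes, and all that passed are listed below. Near-identical stretches (95% identity or more over at least 100 bases) were found with blastn. Alternatives were limma 3.58.1 with voom, DESeq2 1.42.0, library sizes alone, upper-quartile factors, no low-count filter, at least 10 counts in every library, the replicate number as a block, only the time points compared, other thresholds, and leaving out each library. The scripts were tested on simulated data.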

Additional observations from a re-analysis of the deposited data

Results flagged for a closer look

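The effect of FGF6 differed between time points for 31 gene and interval pairs among the 36 genes, by edgeR's interaction test with an adjusted p under 0.05. Such differences were common among all genes tested. From 4 to 8 h, 15.1% of all genes moved down and 15.5% up, and from 8 to 24 h 22.5% and 22.6%. Values are the change in log2 fold change, later minus earlier. From 4 to 8 h the effect moved down for Lpin1 (-0.79), Acsl1 (-0.43), Cpt2 (-0.37), Acsl3 (-0.34), Elovl1 (-0.23), Acadvl (-0.21) and Hadha (-0.15), with adjusted p from 4.64e-06 (Acsl1) to 0.0378 (Acadvl). From 8 to 24 h it moved up for Lpin1 (1.58), Cpt2 (0.51), Scd2 (0.50), Cpt1a (0.39), Acsl4 (0.31), Hadh (0.29), Echs1 (0.25), Fads2 (0.19) and Acadl (0.15), with adjusted p from 9.47e-11 (Lpin1) to 0.0195 (Acadl). In the same interval it moved down for Mgll (-2.22), Acacb (-1.17), Dgat2 (-0.75), Etfb (-0.64), Pnpla2 (-0.59), Lipe (-0.56), Acly (-0.43), Fasn (-0.42), Acadm (-0.42), Gpam (-0.36), Acsl5 (-0.35), Elovl1 (-0.28), Agpat2 (-0.26), Etfdh (-0.23) and Fads1 (-0.18), with adjusted p from 3.1e-08 (Acly) to 0.0095 (Fads1). For Fasn the log2 fold change of 0.49 at 8 h was followed by 0.07 at 24 h, while its level in Veh rose from 453.0 ± 37.7 to 871.9 ± 21.1 CPM. For Acsl5 the sign of the called change turned between 8 and 24 h, from 0.14 to -0.21. Groups of 3 libraries are too small for a test of single outlying libraries.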

How the results depend on the processing

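No called log2 fold change of the 36 genes turned its direction under any alternative run, and limma with voom left all 108 results of the 36 genes at 3 time points on their side of the threshold. DESeq2 and the fit to only the time points compared left 106 of 108 there, library sizes alone 99, upper-quartile factors 104 and no low-count filter 107. At least 10 counts in every library removed Mgll and left 104 of the others there, all but 1. Library sizes alone moved the median log2 fold change of all genes to -0.15 at 4 h and -0.114 at 8 h, and upper-quartile factors to -0.105 at 4 h, and their calls of all genes split into 3242 higher and 6495 lower at 4 h with library sizes alone against 4308 and 5152. The number of the 36 genes called higher at 4 h was then 3 with library sizes alone and 3 with upper-quartile factors, and at 8 h 2 with library sizes alone, and 2 fell in Veh from 8 to 24 h with either scaling and at the threshold of 0.25. Requiring at least 1.5-fold left 1 higher and 10 lower at 4 h, 1 and 14 at 8 h, and 1 and 14 at 24 h. For the time differences it left 1 lower from 4 to 8 h, and 1 higher and 5 lower from 8 to 24 h. Of all 15071 genes it left 398 higher and 737 lower, and 816 higher and 1567 lower, in these intervals. In Veh it left 1 of the 36 higher and 1 lower from 4 to 8 h, and 12 higher and 0 lower from 8 to 24 h. Of all genes, 371 were then higher and 682 lower, and 937 higher and 691 lower. At an adjusted p under 0.25 the time difference from 4 to 8 h had 2 higher and 14 lower. The share of all genes at that threshold was not computed.

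With each library left out in turn, 24 to 26 genes were lower and 4 to 5 higher at 4 h, 27 to 28 and 3 to 5 at 8 h, and 31 and 2 to 3 at 24 h. The time differences gave 5 to 8 lower and 0 higher from 4 to 8 h, and 15 lower and 8 to 10 higher from 8 to 24 h, and in Veh 10 to 12 rose and 9 to 14 fell from 4 to 8 h, and 28 to 31 rose and 1 fell from 8 to 24 h. Same-numbered libraries share only a number: the correlation of their deviations from the group means lay between -0.0275 and 0.0486. With the replicate number as a block, 107 of 108 results kept their side of the threshold, and Agpat2 at 4 h lost its call (-0.129, adjusted p = 0.0513). Depth limits Mgll at 24 h, with 8 counts over the FGF6 libraries. Leaving out a library could also move all genes together, and the values for single genes include that move. The median of all genes at 24 h was 0.0205 without Veh replicate 3 and 0.0103 without FGF6 replicate 1 of that time, against -0.02. The cause of these shifts was not tested.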
